A study of Mus musculus with 48 samples.

Results

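Interferon-stimulated genes, the genes that cells switch on when interferon reaches them, were followed in mouse thoracic aortas with and without dissection. The set was a fixed list of 42 gene symbols, and its members were the rows of the deposited gene table with those symbols. The list was chosen with earlier results of these data known, so setting members beside all genes is not independent of these data. Of the 42, 40 were found among the 18782 genes of the table, and all 40 passed the filter on low counts. Mx1 and Mx2 were not analysed here.

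The 48 libraries came from C57BL/6J wild-type mice of both sexes, each library from 1 mouse. The male groups were MaCon (10 mice), MaNonAD (4 mice) and MaAAD (7 mice), and the female groups were FeCon (10 mice), FeNonAD (8 mice) and FeAAD (9 mice). Con mice drank normal water. NonAD and AAD mice drank water with 0.4% β-aminopropionitrile (BAPN), a lysyl oxidase inhibitor that weakens the collagen and elastin of the vessel wall, for 28 days starting when they were 3 weeks old. NonAD mice had no lesion on microscopy after BAPN, and AAD mice had a dissection or an aneurysm. The 6 groups held only mice that lived to day 28, so aortas that ruptured earlier are not among the AAD libraries, and NonAD and AAD differ in outcome and not in treatment. RNA came, in the study's description, from lesioned segments, so segment and lesion cannot be told apart where the other groups gave a different segment. No batch is named in the labels.

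Interferons of type I signal through the receptor chains IFNAR1 and IFNAR2 and the kinases JAK1 and TYK2. The kinases activate STAT2, which in a complex with IRF9 binds the interferon-stimulated response element (ISRE) of target promoters. Interferon gamma, the type II interferon, acts through its own receptor and leads to binding at the gamma-activated site (GAS). The target genes encode sensors of foreign nucleic acid, enzymes that block translation or degrade RNA, membrane proteins that stop virus entry or release, and GTPases that attack vacuoles of microbes. In the arterial wall, such genes are known to be expressed by smooth muscle, endothelium, fibroblasts and resident and recruited leukocytes.

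Promoters of the members were read from RefSeq for build GRCm38.p6, which gives 250 bases before and 50 bases after each start site and held an entry for 32 of the 40 members. The ISRE core (GAAA, any 2 bases, GAAA), on either strand, was present in 17 of these 32 genes (53.1%) and in 3.99% of the 27025 genes with a promoter in RefSeq. The GAS core (TTC, any 3 bases, GAA), which reads alike on both strands, was present in 8 of the 32 (25.0%) and in 9.55% of all genes. Windows of bases -130 to -1 are shown for 8 members that are described in the results. Those of Igtp, Gbp2, Gbp3 and Rsad2 also held an ISRE core and are not shown. Every ISRE core in the windows shown is in capitals. On the opposite strand the core reads TTTC, any 2 bases, TTTC, and cores that overlap form a longer run. The windows and their strands were Isg15 at chr4:156200819-156200948 (minus), Ifit1 at chr19:34640759-34640888 (plus), Ifit3 at chr19:34583399-34583528 (plus), Oas1a at chr5:120907526-120907655 (minus), Oas3 at chr5:120777660-120777789 (minus), Irgm1 at chr11:48871421-48871550 (minus), Bst2 at chr8:71537473-71537602 (minus) and Trim30a at chr7:104465194-104465323 (minus).
Isg15: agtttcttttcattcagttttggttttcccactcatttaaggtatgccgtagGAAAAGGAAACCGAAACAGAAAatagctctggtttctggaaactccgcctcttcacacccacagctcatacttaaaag
Ifit1: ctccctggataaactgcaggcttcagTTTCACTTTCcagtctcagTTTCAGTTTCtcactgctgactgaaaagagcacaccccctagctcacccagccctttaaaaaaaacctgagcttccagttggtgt
Ifit3: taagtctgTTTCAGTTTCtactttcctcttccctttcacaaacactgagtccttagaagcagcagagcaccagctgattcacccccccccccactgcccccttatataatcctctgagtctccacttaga
Oas1a: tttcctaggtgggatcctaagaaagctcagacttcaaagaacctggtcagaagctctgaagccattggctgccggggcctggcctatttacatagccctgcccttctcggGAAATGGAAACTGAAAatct
Oas3: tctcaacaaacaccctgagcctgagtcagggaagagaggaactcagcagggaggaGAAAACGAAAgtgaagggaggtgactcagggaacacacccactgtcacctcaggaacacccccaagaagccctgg
Irgm1: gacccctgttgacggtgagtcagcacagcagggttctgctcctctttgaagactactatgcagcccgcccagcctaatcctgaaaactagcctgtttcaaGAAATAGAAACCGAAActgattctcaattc
Bst2: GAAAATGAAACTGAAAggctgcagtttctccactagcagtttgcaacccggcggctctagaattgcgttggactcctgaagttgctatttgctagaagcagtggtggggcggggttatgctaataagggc
Trim30a: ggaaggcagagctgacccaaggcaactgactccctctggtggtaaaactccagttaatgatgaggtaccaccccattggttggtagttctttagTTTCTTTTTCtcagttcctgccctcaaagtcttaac
The Isg15 window held 3 overlapping cores, Ifit1 held 2 separate ones, and Oas1a, Irgm1 and Bst2 held 2 overlapping ones. Isg15's run began 78 bases before the start site, Oas1a's 20 bases before it and Bst2's 130 bases before it. A match of letters describes the window and is not evidence of binding.

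RNA levels are given as CPM, the expected count of a gene scaled to counts per 1e+06 of the library's total after TMM scaling. Library totals ranged from 13548003 to 17281262 counts, with a median of 15681334. The smooth muscle markers Acta2, Myh11, Cnn1, Tagln, Lmod1 and Myocd and the fibroblast and endothelial markers were above 0 in all 48 libraries. Differences were tested with edgeR's quasi-likelihood test over 14431 genes, and a gene was called where its Benjamini-Hochberg adjusted p was under 0.05. Levels of different genes are compared only per kilobase of exon (GENCODE M21). In whole tissue, fewer or more cells of a type and less or more RNA per cell cannot be told apart.

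In control aortas the members spanned a wide range of levels. Over the 20 controls, the median level per kilobase was 194 CPM for Ifitm3, an inhibitor of virus entry, and 176 CPM for Ifi27l2a, a small interferon-induced membrane protein. Bst2 (tetherin, which holds budding virus at the cell surface) followed at 26.4 CPM per kilobase and Ifi35 at 17.4. The lowest median was that of Oas3, at 0.0633 CPM per kilobase, below Ifi44 at 0.109 and Oasl1 at 0.318. On this scale the antiviral membrane proteins stood well above the sensors of nucleic acid.

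The members also differed in how much they varied among untreated mice. Eif2ak2, which encodes the translation-blocking kinase PKR, varied least: its highest control library was 1.55 times its lowest. Gbp2 varied 1.69 times and Parp9 1.70 times. Ifit3b varied 15.1 times, Rsad2 12.0 times, Oasl1 9.50 times and Oas3 8.89 times. The median ratio of the members to the control median of the same sex was highest in FeCon6, at 1.36, among females and in MaCon3, at 1.33, among males. MaCon8 at 0.748 and FeCon5 at 0.703 were the lowest controls.

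**Figure D1:**
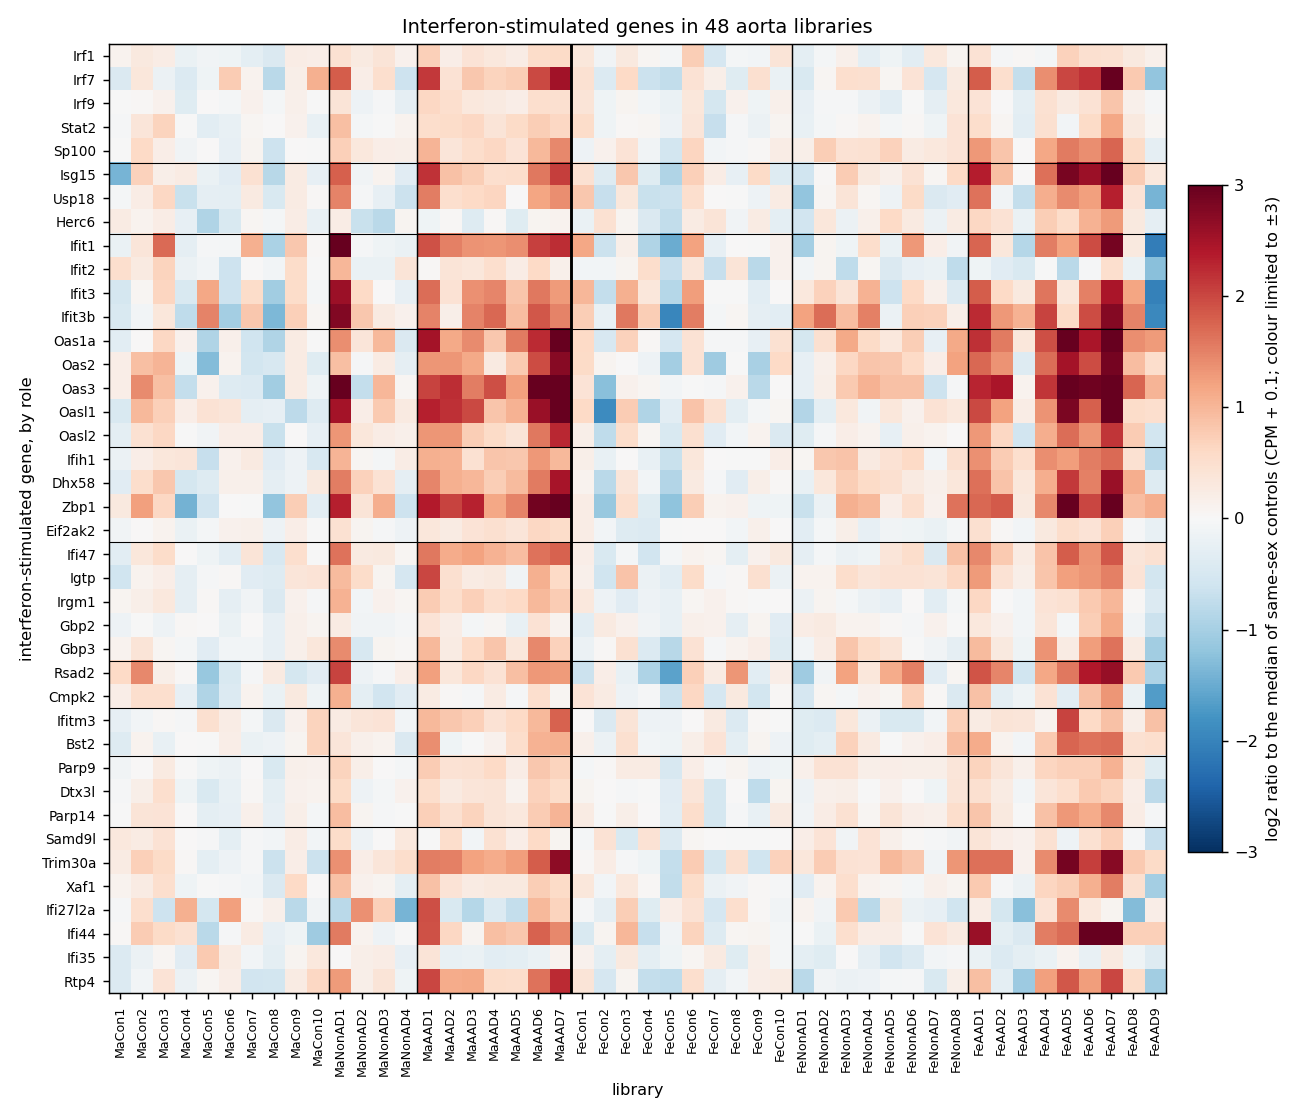
Level of each of the 40 members (rows, in order of role, separated by lines) in each of the 48 libraries (columns), as the log2 ratio of CPM + 0.1 to the median of controls of the same sex; red is higher and blue is lower. Red fills most of the 7 MaAAD columns, the FeAAD columns run from mostly red (FeAAD7) to little red (FeAAD3 and FeAAD9), and the MaNonAD1 column is red while MaNonAD2, MaNonAD3 and MaNonAD4 are near white.

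The first comparison asked which members changed in aortas with a lesion. In males, 31 of the 40 members rose in MaAAD against MaCon and none fell, where 18.9% of all genes tested rose and 35% were called in either direction. In females, 34 of the 40 rose in FeAAD against FeCon and none fell, where 23.8% of all genes rose and 44.4% were called in either direction. The median log2 fold change of the members was 0.82 in males and 0.94 in females, against -0.03 and 0.00 over all genes. At a fold of 2 or more, 16 members were called in males (11.4% of all genes) and 16 in females (12.7% of all genes). The 30 members called in both sexes were 96.8% of those called in males and 88.2% of those called in females.

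The OAS family, which includes the enzymes that make the 2',5'-linked oligoadenylates that activate RNase L, rose furthest. All 5 of its members rose in both sexes, with a median log2 fold change of 2.25 in males and 1.81 in females. Oas3 was at 0.134, 0.379 and 1.18 CPM (lowest, median and highest) in MaCon and at 1.02, 1.87 and 11.9 CPM in MaAAD. In females it was at 0.133, 0.458 and 0.640 CPM in FeCon and at 0.495, 2.63 and 10.7 CPM in FeAAD. The lowest AAD library of each sex lay inside the control range, so the groups overlapped. The log2 fold change of Oas3 was 2.88 ± 0.52 (SE; adjusted p = 1.96e-05) in males and 3.10 ± 0.51 (adjusted p = 2.80e-06) in females, or 7.38-fold and 8.56-fold. Without MaAAD7, the highest male library, the log2 fold change in males was 2.10 (adjusted p = 0.000852).

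Oas1a was at 1.40, 2.72 and 4.21 CPM in MaCon and at 4.85, 8.21 and 35.8 CPM in MaAAD, with no overlap. In females it was at 1.63, 2.37 and 3.86 CPM in FeCon and at 3.03, 9.36 and 40.6 CPM in FeAAD, where FeAAD3 alone lay inside the control range. Its log2 fold changes were 2.34 ± 0.38 (adjusted p = 3.45e-06) and 2.39 ± 0.36 (adjusted p = 8.67e-07). Oasl1, which lowers translation of Irf7 in mice, rose by a log2 fold change of 2.25 ± 0.41 in males and 1.81 ± 0.38 in females, and Oas2 by 1.46 ± 0.34 and 1.78 ± 0.32. Oasl2 was at 8.69, 14.0 and 21.4 CPM in MaCon against 18.3, 34.9 and 67.0 CPM in MaAAD, and at 9.68, 16.4 and 23.6 CPM in FeCon against 11.1, 35.0 and 73.4 CPM in FeAAD. AAD and control libraries overlapped in both sexes, and the log2 fold changes of Oasl2 were 1.25 ± 0.26 and 1.12 ± 0.25.

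All 4 nucleic acid sensors and effectors rose in both sexes. Zbp1, a sensor of Z-form nucleic acid that can trigger necroptosis, was at 0.382, 1.19 and 2.94 CPM in MaCon and at 2.77, 6.34 and 17.8 CPM in MaAAD. In females it was at 0.567, 1.44 and 2.48 CPM in FeCon and at 1.79, 5.01 and 17.9 CPM in FeAAD. In each sex the lowest AAD library lay inside the control range, and the log2 fold changes were 2.47 ± 0.44 (adjusted p = 1.44e-05) and 2.30 ± 0.42 (adjusted p = 1.58e-05). Ifih1 (MDA5, a sensor of long double-stranded RNA) rose by 0.97 ± 0.21 and 1.09 ± 0.20, and its partner Dhx58 (LGP2) by 1.38 ± 0.28 and 1.53 ± 0.27.

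Eif2ak2 rose less than the other 3 in both sexes. It was at 27.5, 31.5 and 36.4 CPM in MaCon and at 37.7, 41.8 and 48.6 CPM in MaAAD, with no overlap. In females it was at 27.2, 36.0 and 42.1 CPM in FeCon and at 30.6, 44.0 and 58.8 CPM in FeAAD, with overlap. The log2 fold changes were 0.42 ± 0.10 (adjusted p = 0.000992) and 0.31 ± 0.10 (adjusted p = 0.00791).

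**Figure D2:**
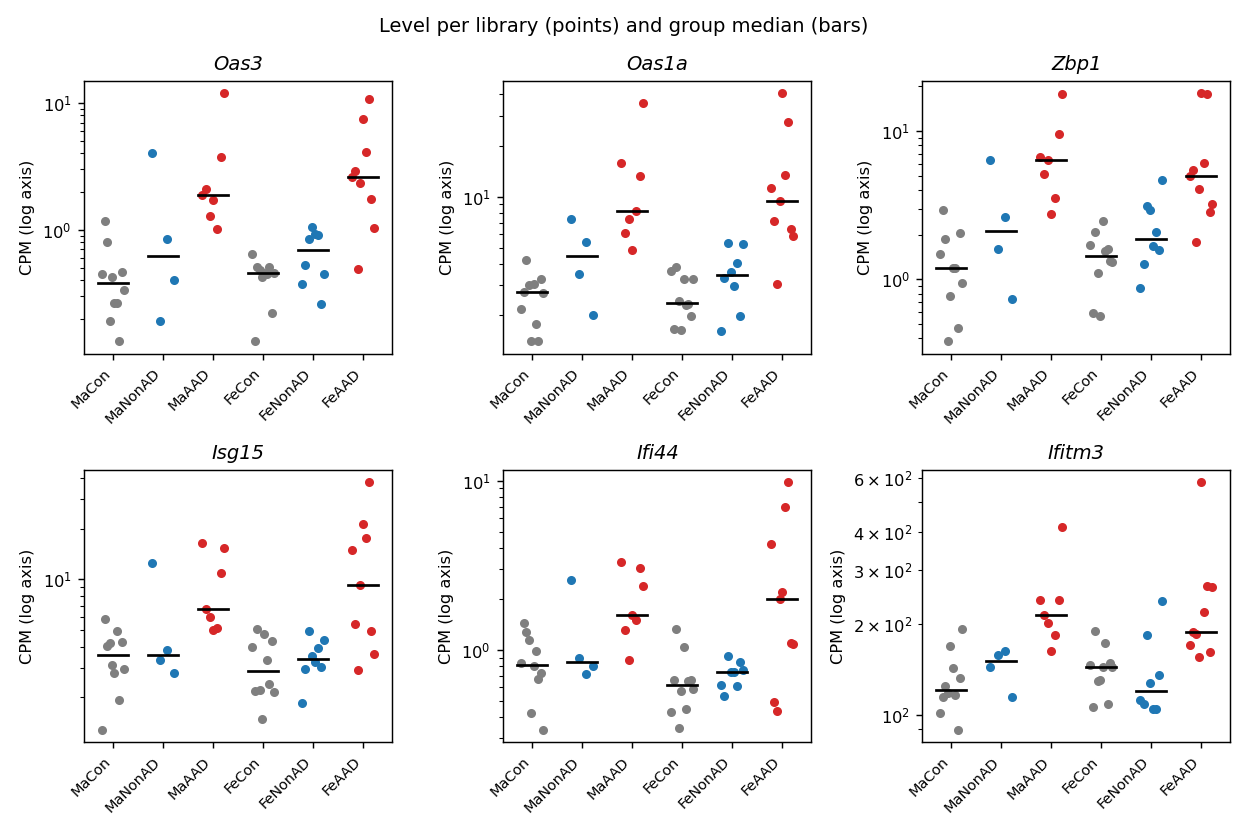
CPM of Oas3, Oas1a, Zbp1, Isg15, Ifi44 and Ifitm3 in every library (points, log axis), with the median of each group as a bar. Most AAD points lie above the highest control of their sex except for Ifitm3 in females, where 4 of 9 do, MaNonAD1 is the high MaNonAD point of the first 5 panels, and the FeAAD points spread from the control level to several times the FeCon maximum.

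Of the transcription factors, 5 of 5 rose in males and 4 of 5 in females. Irf7, the factor that amplifies type I interferon production, rose furthest, with log2 fold changes of 1.39 ± 0.37 and 1.53 ± 0.36. Stat2 was at 24.5, 30.4 and 48.4 CPM in MaCon and 40.0, 45.1 and 50.6 CPM in MaAAD, and at 22.7, 36.8 and 54.1 CPM in FeCon and 29.6, 45.1 and 83.0 CPM in FeAAD. The groups overlapped in both sexes, and its log2 fold changes were 0.51 ± 0.16 (adjusted p = 0.00836) and 0.35 ± 0.15 (adjusted p = 0.0480). Irf9, the DNA-binding partner of STAT2, rose by 0.42 ± 0.12 and 0.26 ± 0.11, and Sp100, a nuclear body protein, by 0.80 ± 0.19 and 0.97 ± 0.18. Irf1, a factor induced by interferon gamma, rose by 0.43 ± 0.13 in males (adjusted p = 0.00644), and in females it differed by 0.16 ± 0.12 (adjusted p = 0.294).

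Of the ISG15 system, which attaches a ubiquitin-like protein to others, Isg15 and Usp18 rose in both sexes. Isg15, the modifier itself, was at 1.28, 3.55 and 5.82 CPM in MaCon and 5.04, 6.64 and 16.4 CPM in MaAAD, and at 1.49, 2.87 and 5.07 CPM in FeCon and 2.91, 9.24 and 37.8 CPM in FeAAD. The groups overlapped, and the log2 fold changes were 1.40 ± 0.38 and 2.03 ± 0.36. Usp18, which removes ISG15 and restrains the receptor, rose by 0.92 ± 0.34 and 1.00 ± 0.32. Herc6, the mouse ISG15 ligase, was at 5.41, 10.1 and 12.0 CPM in MaCon and 7.74, 10.3 and 10.8 CPM in MaAAD, and its log2 fold change was -0.01 ± 0.19 (adjusted p = 0.975). In females it was at 4.25, 7.12 and 9.81 CPM in FeCon and 5.92, 10.4 and 17.5 CPM in FeAAD, and it rose by 0.57 ± 0.18 (adjusted p = 0.00766) with overlap.

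The IFIT proteins bind foreign RNA ends, and their genes lie together on chromosome 19. Ifit1, Ifit3 and Ifit3b rose in both sexes, by log2 fold changes of 0.91 to 1.31. Ifit3 was at 6.82, 14.1 and 31.8 CPM in MaCon and 19.0, 36.8 and 45.3 CPM in MaAAD, and at 8.29, 15.2 and 36.3 CPM in FeCon and 3.63, 34.5 and 83.6 CPM in FeAAD. The lowest FeAAD library was below every control, and the call rested on a log2 fold change of 0.91 ± 0.36 (adjusted p = 0.0356) in females and 1.12 ± 0.38 (adjusted p = 0.0188) in males. Ifit2 was called in neither sex, with log2 fold changes of 0.19 ± 0.20 and -0.21 ± 0.19. Values of Ifit3 and Ifit3b were not whole in 47 of 48 libraries, which RSEM gives where reads could be assigned to more than 1 gene, so the levels of these genes are less certain. Values that were not whole were also found for Oas1a (46 libraries), Trim30a (35), Eif2ak2 (21), Sp100 (18) and Oas3 (13); which genes shared the reads was not tested.

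Of the immunity-related and guanylate-binding GTPases, which act on vacuoles of microbes, 4 of 5 rose in males and 5 of 5 in females. Ifi47 rose furthest, by log2 fold changes of 1.27 ± 0.22 (adjusted p = 1.25e-05) and 1.19 ± 0.21 (adjusted p = 1.06e-05). Irgm1, a regulator of the other GTPases, rose by 0.72 ± 0.14 and 0.40 ± 0.13, and Igtp by 0.84 ± 0.24 and 0.73 ± 0.23. Gbp2, a guanylate-binding protein, was at 25.9, 30.8 and 34.1 CPM in MaCon and 26.5, 33.4 and 42.0 CPM in MaAAD, and at 20.1, 25.3 and 30.5 CPM in FeCon and 16.3, 27.6 and 56.0 CPM in FeAAD. The groups overlapped throughout, and its log2 fold changes were 0.20 ± 0.14 (adjusted p = 0.252) and 0.32 ± 0.13 (adjusted p = 0.0400). Gbp3 rose by 0.74 ± 0.25 and 0.75 ± 0.23.

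Rsad2 and Cmpk2 are neighbours on chromosome 12, encoding viperin, which makes a chain-terminating nucleotide, and a mitochondrial nucleotide kinase. Rsad2 rose by a log2 fold change of 1.46 ± 0.39 in females (adjusted p = 0.00218), and in males it differed by 0.77 ± 0.41 (adjusted p = 0.145). Cmpk2 was at 4.08, 7.74 and 11.0 CPM in MaCon and 7.56, 8.10 and 11.0 CPM in MaAAD, and at 4.96, 7.81 and 12.1 CPM in FeCon and 2.36, 7.12 and 19.6 CPM in FeAAD. The medians of AAD and control were close in both sexes, and the log2 fold changes of Cmpk2 were 0.14 ± 0.26 and 0.29 ± 0.24, called in neither sex.

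Both membrane restriction factors rose in both sexes. Ifitm3 was at 89.6, 121 and 192 CPM in MaCon and 163, 214 and 414 CPM in MaAAD, and at 106, 144 and 189 CPM in FeCon and 155, 187 and 583 CPM in FeAAD. The groups overlapped, and the log2 fold changes were 0.86 ± 0.20 (adjusted p = 0.000769) and 0.78 ± 0.19 (adjusted p = 0.000927). Bst2 rose by 0.64 ± 0.22 and 0.96 ± 0.21.

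Parp9, Dtx3l and Parp14 lie together on chromosome 16 and encode ADP-ribosyltransferases and a ubiquitin ligase that partners PARP9. All 3 rose in both sexes, by log2 fold changes of 0.41 to 0.73. Parp9 was at 15.1, 20.6 and 24.9 CPM in MaCon and 24.3, 31.1 and 36.0 CPM in MaAAD, and at 14.7, 20.4 and 24.3 CPM in FeCon and 15.8, 32.1 and 42.1 CPM in FeAAD. The groups overlapped at the edge in males and over most of the control range in females, and the log2 fold changes were 0.59 ± 0.12 (adjusted p = 0.000158) and 0.52 ± 0.12 (adjusted p = 0.000332).

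Of the 7 other effectors, 3 rose in males and 4 in females. Trim30a, a TRIM protein that restrains Toll-like receptor signalling, rose by 1.64 ± 0.29 (adjusted p = 1.34e-05) and 1.71 ± 0.28 (adjusted p = 2.33e-06). Rtp4, a chaperone of membrane receptors, rose by 1.44 ± 0.31 and 1.00 ± 0.29, and Ifi44, a GTP-binding antiviral protein, by 1.20 ± 0.41 and 2.21 ± 0.40. Xaf1, a regulator of apoptosis, rose by 0.56 ± 0.19 in females (adjusted p = 0.0163), and in males it differed by 0.41 ± 0.20 (adjusted p = 0.121). Samd9l, Ifi27l2a and Ifi35 were called in neither sex. Ifi27l2a was at 48.1, 84.2 and 199 CPM in MaCon and 46.5, 63.0 and 323 CPM in MaAAD, and at 55.9, 79.1 and 131 CPM in FeCon and 32.2, 91.4 and 213 CPM in FeAAD, with the controls lying wholly within the range of AAD libraries in each sex. Ifi35, which can act as an extracellular danger signal, had log2 fold changes of -0.15 ± 0.13 and -0.14 ± 0.12.

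**Figure D3:**
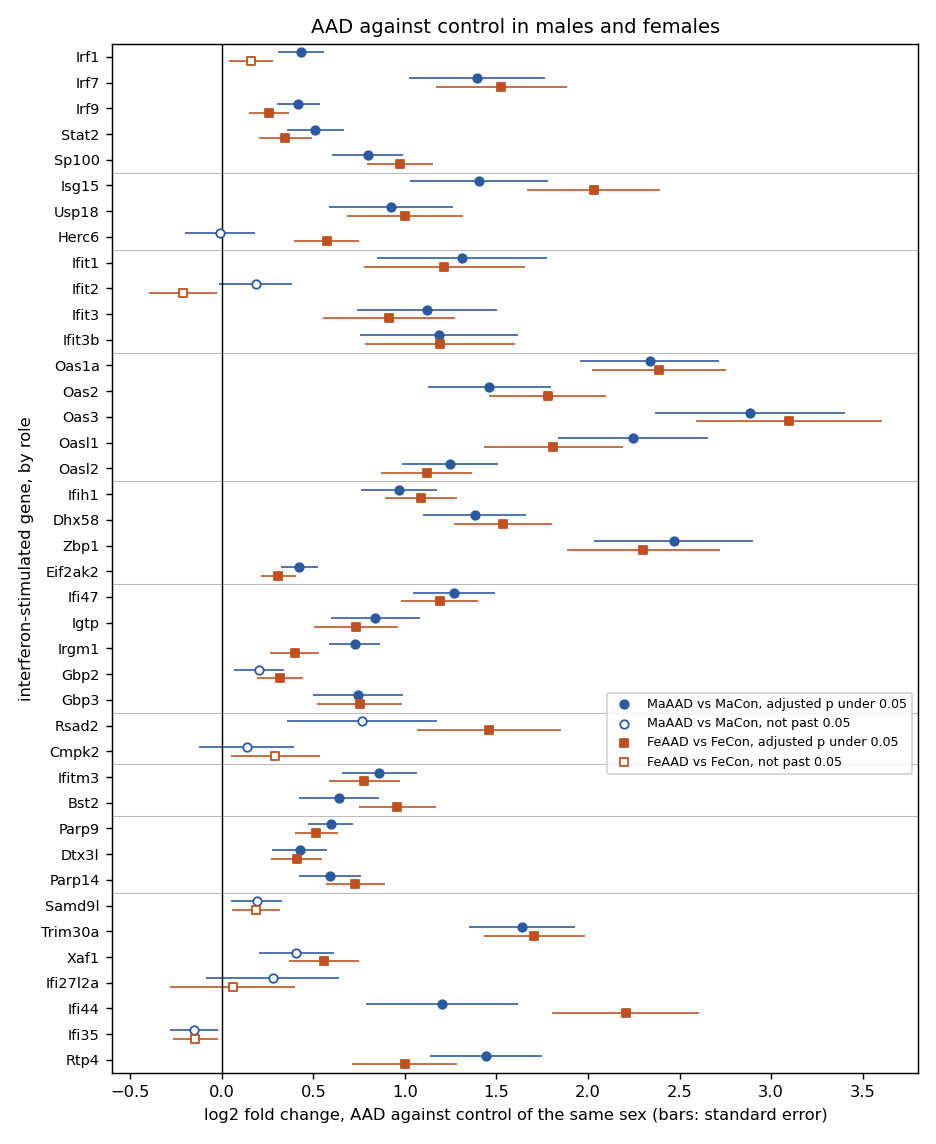
Log2 fold change of each member (rows, in order of role) in MaAAD against MaCon (circles) and FeAAD against FeCon (squares), with bars of 1 SE; filled symbols passed an adjusted p of 0.05. Oas3 lies furthest right in both sexes (2.88 and 3.10), and the open symbols near 0 in both sexes are Ifit2, Cmpk2, Samd9l, Ifi27l2a and Ifi35.

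The calls are set beside the promoter letters as a description, with no test. Of the 17 with the core, 15 rose in males and 17 in females, where 18.9% and 23.8% of all genes tested rose. Gbp2 and Rsad2, whose windows are not shown, had the core and were not called in males. Of the 15 without the core, 9 rose in males and 10 in females. Among the latter were Ifit2, Cmpk2, Samd9l and Ifi35, which were called in neither sex, but also Oasl1, Irf7, Ifi44 and Ifi47, which rose.

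AAD libraries differed widely among themselves. In males, every MaAAD library had a median ratio to the MaCon median above 1.4, from 1.41 in MaAAD2 to 2.45 in MaAAD1. For 7 members (Irgm1, Oas1a, Trim30a, Ifih1, Ifi47, Eif2ak2 and Irf9) every MaAAD library lay above every MaCon library, as did 6.14% of all genes. In females the median ratio to the FeCon median ran from 0.772 in FeAAD9 and 0.946 in FeAAD3 to 3.23 in FeAAD7. For 0 members did every FeAAD library lie above every FeCon library, where 3.63% of all genes did, although edgeR called 34 of them, as did DESeq2. FeAAD7 was the highest FeAAD library for 32 of the 40 members and stood above every control for 36. How many of all genes stood so in FeAAD7 was not counted.

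FeAAD9 and FeAAD3, singled out after their values were seen, were the lowest of the FeAAD group in the mean level of the members. Positions against the FeCon range were counted for the members only, not for all genes. In FeAAD3, 36 members lay inside the FeCon range, 1 (Ifih1) above it and 3 (Usp18, Ifi27l2a and Rtp4) below it. In FeAAD9, 19 lay inside the range, 6 above and 15 below. Those below were Irf7, Usp18, Ifit1, Ifit2, Ifit3, Ifih1, Irgm1, Gbp2, Gbp3, Cmpk2, Dtx3l, Samd9l, Xaf1, Ifi35 and Rtp4, and those above were Oas1a, Oas3, Zbp1, Ifi47, Ifitm3 and Bst2. Irf7 stood at 3.69 CPM and Ifit3 at 3.63 CPM in FeAAD9, against FeCon minima of 5.03 and 8.29 CPM. The summed level of 3 pan-leukocyte markers (Ptprc, Coro1a and Laptm5) was 245 CPM in FeAAD9, above the FeCon maximum of 89.7 CPM. Its summed macrophage markers, 436 CPM, were the lowest of the FeAAD group and inside the FeCon range. In mean log2(CPM + 1) the same markers stood at 5.56, above the FeCon maximum of 5.32. Its summed fibroblast markers were 905 CPM, against a FeCon minimum of 2799 CPM. Its summed neutrophil, monocyte and B cell markers were 185, 76.6 and 26.2 CPM, against FeCon maxima of 5.45, 15.5 and 2.22 CPM, and its endothelial markers were 233 CPM, against a FeCon minimum of 400.0 CPM. The part of these markers in the result was not tested.

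Leaving out each AAD library in turn kept between 25 and 31 calls in males and between 25 and 34 in females. Of all genes, the same fits called 4227 to 5348 in males and 5666 to 6560 in females. In males 23 of the 31 called members stayed called in each of those 7 fits, and in females 24 of the 34 in each of 9 fits. The fewest calls in females came without FeAAD7, when Usp18, Irgm1, Ifit1, Ifit3, Ifit3b, Irf9, Stat2, Gbp2 and Xaf1 were no longer called; without the control FeCon10, Ifit3, Gbp2 and Stat2 were not called. In males they came without MaAAD6, when Usp18, Bst2, Dtx3l, Gbp3, Ifi44 and Ifit3b were no longer called.

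Markers of leukocytes moved with the members, and their part in the result was not tested. Of 8 macrophage markers, 8 rose in each sex, as did 4 of 4 monocyte markers and 3 of 3 pan-leukocyte markers. Summed macrophage markers ran from 161 to 422 CPM in MaCon and from 643 to 2158 CPM in MaAAD, and from 183 to 457 CPM in FeCon and 436 to 2338 CPM in FeAAD. Neutrophil markers rose for 3 of 4 tested in males and 4 of 4 in females, with Ly6g at 0 in 37 of 48 libraries, and their sum ran from 7.31 to 212 CPM in MaAAD against 1.47 to 9.75 CPM in MaCon, and from 5.76 to 849 CPM in FeAAD against 1.13 to 5.45 CPM in FeCon. B cell markers rose for 2 of 4 in males and 4 of 4 in females, and T cell markers for 0 of 7 and 1 of 7.

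Markers of plasmacytoid dendritic cells, potent makers of type I interferon, rose for 0 of 3 tested in each sex. Their defining marker Siglech fell by 1.00 ± 0.36 on the log2 scale in males (adjusted p = 0.0265). In females the 1 listed gene that fell was Cox6a2, by 2.21 ± 0.86 (adjusted p = 0.0325), which is also a gene of heart and skeletal muscle. NK cell markers were too low to test, with Klra8 at 0 in 38 libraries and Ncr1 at 0 in 28. Smooth muscle markers fell for 6 of 6 in each sex, from a summed level of 26518 to 57488 CPM in MaCon to 11143 to 27887 CPM in MaAAD, and from 29026 to 50738 CPM in FeCon to 13457 to 30269 CPM in FeAAD. Heart muscle markers fell for 4 of 6 and erythroid markers rose for 5 of 5 in FeAAD against FeCon, and 0 of them were called in males. Endothelial markers rose for 3 of 5 in males, and in females 2 rose and 1 fell. Fibroblast markers rose for 2 of 5 in males, and in females 1 rose and 1 fell.

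The order of libraries by members matched their order by macrophage markers in part. FeAAD9 and FeAAD3 were the lowest FeAAD libraries on both, with means of 3.16 and 3.35 and summed markers of 436 and 470 CPM. In mean log2(CPM + 1) of the markers, FeAAD3 at 5.54 was below FeAAD9 at 5.56. FeAAD5 had the highest summed macrophage markers of the FeAAD group, 2338 CPM, and a mean log2(CPM + 1) of the 40 members of 4.60, while FeAAD7 had 1162 CPM of markers and a mean of 5.14. In males MaAAD7 was highest on both, at 2158 CPM and 4.67, but MaAAD5 had 1167 CPM of markers, second in its group, and the lowest mean of the group, 3.84.

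**Figure D4:**
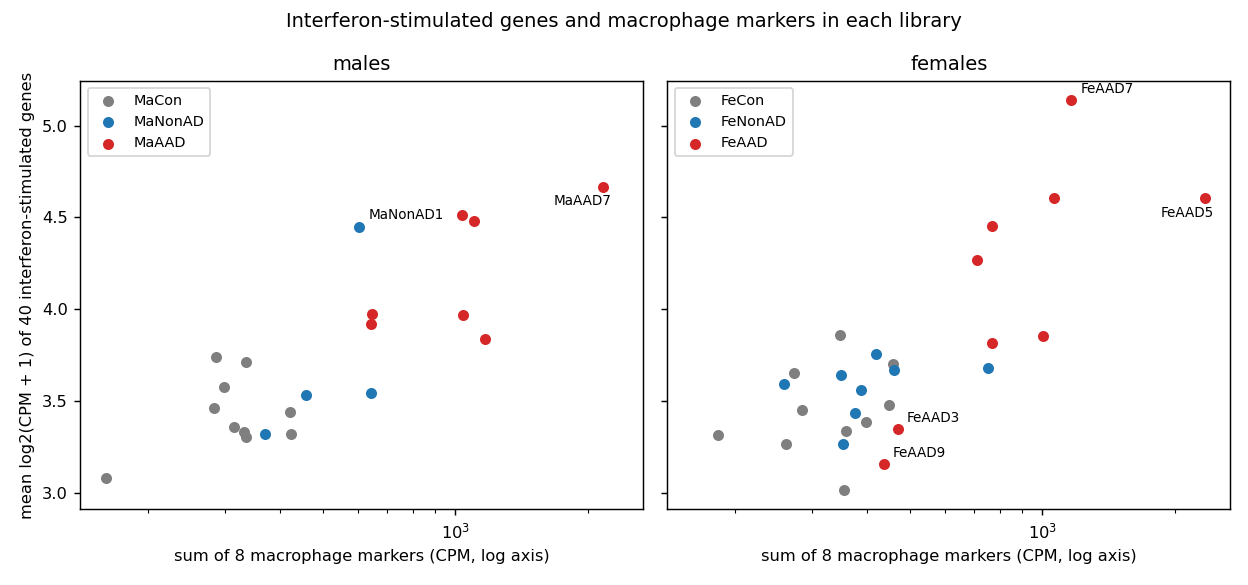
Mean log2(CPM + 1) of the 40 members (vertical axis) against the summed CPM of 8 macrophage markers (horizontal log axis) in each library, males left and females right. AAD libraries lie to the right of the controls in males; MaNonAD1 (605 CPM, mean 4.45) lies above the controls and level with the upper AAD libraries, and FeAAD2, FeAAD3, FeAAD8 and FeAAD9 lie within the FeCon range of the vertical axis.

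The second question was whether BAPN without a lesion changed the members. In MaNonAD against MaCon, edgeR called 0 of the 40, where 0.624% of all genes were called; 9 members had an unadjusted p under 0.05, and DESeq2 also called 0. The median log2 fold change of the members was 0.39. In FeNonAD against FeCon, edgeR called 0 of the 40 although 14.5% of all genes were called; 3 members (Ifih1, Parp9 and Trim30a) had an unadjusted p under 0.05, and DESeq2 called 0. Their median log2 fold change was 0.11, and the smallest adjusted p was that of Ifih1 at 0.101 (log2 fold change 0.49 ± 0.20). In a fit of FeNonAD and FeCon alone, Ifih1 was called with an adjusted p of 0.0287.

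The 4 MaNonAD libraries were unlike each other, as MaNonAD1 stood apart. MaNonAD1 was the highest of the 4 for 37 of the 40 members, above every MaCon library for 34, and above the MaAAD median for 33. The same counts over all genes were not made, and MaNonAD1 was singled out after its values were seen. The median ratio of the members in MaNonAD1 to the MaCon median was 2.06, while those of MaNonAD2, MaNonAD3 and MaNonAD4 were 1.09, 1.07 and 0.969. Oas3 was at 4.01, 0.191, 0.854 and 0.401 CPM in MaNonAD1 to MaNonAD4, against a highest MaCon value of 1.18 CPM. Ifit1 was at 19.5 CPM in MaNonAD1, 8.99 times the MaCon median, and at no more than 2.10 CPM in the others. Zbp1 was at 6.41, 1.59, 2.63 and 0.735 CPM, and Oas1a at 7.37, 3.50, 5.39 and 2.00 CPM.

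Of the 34 members above every MaCon library in MaNonAD1, 28 were called in MaAAD against MaCon and 6 were not (Ifit2, Gbp2, Rsad2, Cmpk2, Samd9l and Xaf1). Another 3 (Oas2, Ifitm3 and Bst2) were called in MaAAD without lying above every MaCon library in MaNonAD1. Ifit1 in MaNonAD1 was above the highest MaAAD value, 10.4 CPM, as was Ifit3 at 83.5 CPM against 45.3 CPM. The lowest ratios in MaNonAD1 were those of Ifi27l2a, at 48.4 CPM or 0.575 times the MaCon median, and Ifi35, at 1.01 times. MaNonAD1 had the highest summed monocyte markers of its group, 36.0 CPM, and the highest summed pan-leukocyte markers, 161 CPM against 120 CPM in MaNonAD3 and at most 141 CPM in MaCon. Its macrophage markers were close to those of MaNonAD3, at 605 against 642 CPM in sum and 5.84 against 5.83 in mean log2(CPM + 1), while the median member ratio of MaNonAD3 was 1.07. Its summed smooth muscle markers were 19135 CPM, against 31738 to 35728 CPM in the other 3; the part of these markers in the result was not tested. Without MaNonAD1 the median log2 fold change of the members in MaNonAD against MaCon was -0.02, and 0 members had an unadjusted p under 0.05. MaNonAD1 was picked for its high values, so a lower median without it was set in advance. Leaving out each of the 4 MaNonAD libraries in turn gave medians from -0.02 to 0.49.

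**Figure D5:**
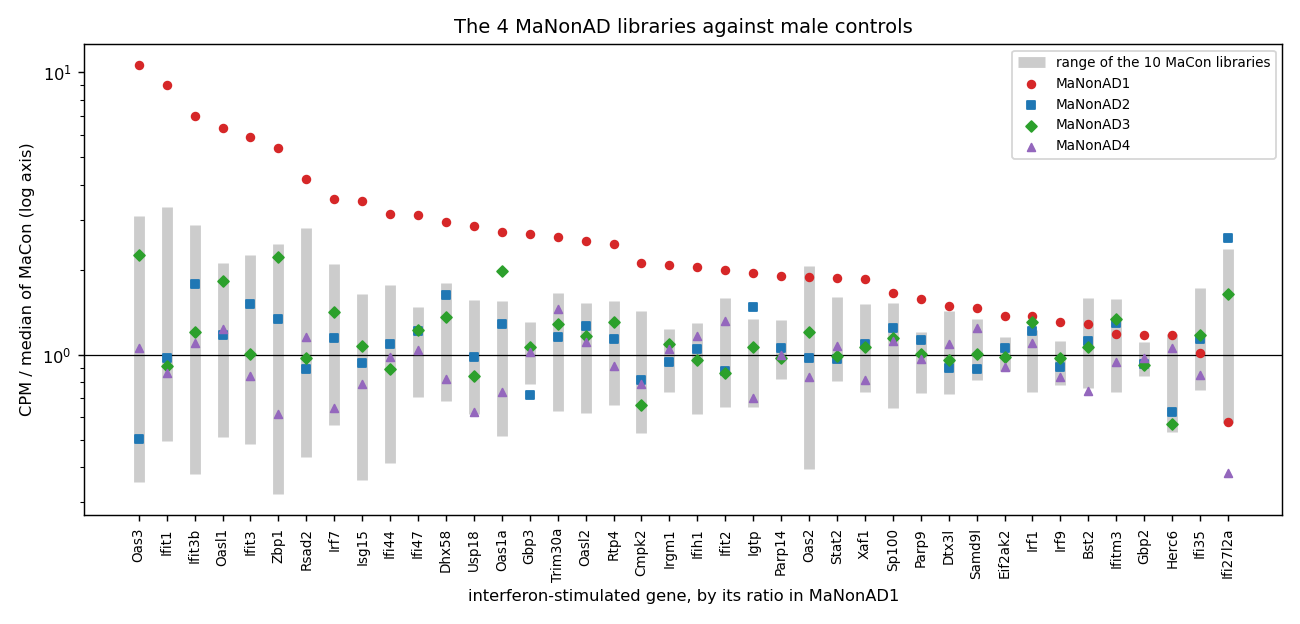
CPM of each member in the 4 MaNonAD libraries (points) divided by the MaCon median (log axis), with the range of the 10 MaCon libraries as grey bars. MaNonAD1 lies above the bar for 34 of the 40 members, up to 10.6 times the MaCon median for Oas3, while points of the other libraries lie mostly within the bars.

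The third question was what set lesion-bearing aortas apart from lesion-free ones under the same BAPN. In females, 23 of the 40 members rose in FeAAD against FeNonAD and none fell, where 13.2% of all genes rose and 18.2% were called. Their median log2 fold change was 0.66, and 13 were called with a fold of 2 or more (7.04% of all genes). The OAS family rose for 5 of 5, the sensors and PKR for 4 of 4, and the membrane factors for 2 of 2, while the IFIT proteins were called for 0 of 4 (log2 fold changes of 0.03 to 1.15). Oas3 was at 0.262, 0.693 and 1.05 CPM in FeNonAD, and differed by 2.45 ± 0.52 on the log2 scale (adjusted p = 0.000663). Ifi44 was at 0.532, 0.743 and 0.914 CPM in FeNonAD and 0.433, 2.00 and 9.80 CPM in FeAAD, with overlap and a log2 fold change of 2.11 ± 0.43 (adjusted p = 0.000402). Oas1a was at 1.61, 3.46 and 5.30 CPM in FeNonAD, with a log2 fold change of 1.97 ± 0.39 (adjusted p = 0.000262).

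FeNonAD and FeAAD levels overlapped for each of these genes. Cell type markers moved in the same comparison: 8 of 8 macrophage, 4 of 4 monocyte, 3 of 3 pan-leukocyte, 4 of 4 tested neutrophil, 3 of 4 B cell and 5 of 5 erythroid markers rose, and 5 of 6 smooth muscle markers fell. Their part in the result was not tested. In a fit of those 2 groups alone, 12 members were called in place of 23. Without FeAAD7, the count was 17, and without FeAAD3 or without FeAAD9 it was 28. Over the 9 fits that each left out 1 FeAAD library, the number of all genes called ran from 1492 to 3209. The comparison shares the FeAAD libraries with that against FeCon, so the 2 counts are not independent.

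In males, edgeR called 0 members in MaAAD against MaNonAD, where 0.409% of all genes were called; 13 had an unadjusted p under 0.05, and DESeq2 called 2, Oas1a and Oas2. The median log2 fold change was 0.38, and for 1 member, Ifitm3, every MaAAD library lay above every MaNonAD library, as for 2.97% of all genes. Without MaNonAD1, edgeR called 4 members, Irgm1, Oas3, Ifi47 and Irf9, and the median log2 fold change was 0.80; 524 genes in all were called in that fit. In the fit without MaNonAD1 the log2 fold change of Oas3 was 2.79 (adjusted p = 0.0346). Without MaAAD1, 1342 genes in all and 0 members were called.

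The last question was whether the sexes differed. Between MaCon and FeCon, edgeR called 0 members, where 14.3% of all genes were called; 4 had an unadjusted p under 0.05, and DESeq2 called 1, Ifit2 (adjusted p = 0.049). Its level was 11.4, 17.6 and 27.8 CPM in MaCon and 15.8, 27.6 and 39.6 CPM in FeCon, and edgeR gave a log2 difference of -0.48 ± 0.18, male minus female (adjusted p = 0.0648). A fit of both control groups alone called Irgm1 and Gbp2 instead. Between MaNonAD and FeNonAD edgeR called 0 members (0.0624% of all genes), with 1 at an unadjusted p under 0.05, and between MaAAD and FeAAD 0 (0.0901% of all genes), with 0 at an unadjusted p under 0.05; DESeq2 called 0 in both.

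The responses themselves were compared between sexes as interactions. EdgeR called 0 members for the NonAD response, the AAD response and the step from NonAD to AAD, where 0.416%, 1.34% and 0% of all genes were called. The numbers of members with an unadjusted p under 0.05 were 2, 1 and 1, and DESeq2 called 0 in each. Herc6 had the smallest p for the AAD response, with a difference of -0.58 ± 0.26 log2 units, male minus female (adjusted p = 0.262). Calls in females alone of Herc6, Gbp2, Rsad2 and Xaf1, and in males alone of Irf1, are therefore not shown to differ by sex.

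The genes upstream of the members were read from lists of the same pathway. Interferon ligands were hardly detected. Of 20 ligand genes listed, 7 were in the table, none passed the filter on low counts, and the highest count of any in a library was 2. Ifnb1 had 0 counts in all 48 libraries, which allows a level of up to 0.174 to 0.223 CPM per library (3 counts). Ifng had 1 or 2 counts in 1 of 10 MaCon, 1 of 7 MaAAD, 1 of 10 FeCon and 4 of 9 FeAAD libraries. At this depth no difference in ligand RNA was detectable.

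Of 9 genes for receptor chains and the kinases behind them, 7 rose in MaAAD against MaCon and 4 in FeAAD against FeCon, and none fell. The female count is near the 44.4% of all genes called in that comparison, and the male count stands beside 35% of all genes. Ifnar1 rose by a log2 fold change of 0.51 ± 0.09 (adjusted p = 6.11e-06) and 0.48 ± 0.08 (adjusted p = 3.61e-06), and Ifnar2 by 0.27 ± 0.10 and 0.26 ± 0.10. Il10rb, a chain shared by the receptors for interferon lambda and interleukin 10, rose by 0.69 ± 0.11 and 0.60 ± 0.10, and Ifngr2, a chain of the interferon gamma receptor, by 0.40 ± 0.14 and 0.81 ± 0.13. Ifnar1 was at 53.2, 62.7 and 67.4 CPM in MaCon and 69.5, 84.9 and 113 CPM in MaAAD, and at 47.0, 62.9 and 74.4 CPM in FeCon and 70.8, 87.2 and 110 CPM in FeAAD. Its groups did not overlap in males and overlapped at the edge in females.

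Of 15 genes of upstream sensing, 10 rose and 1 fell in males, and 11 rose and 1 fell in females. Among all genes tested, 18.9% rose in males and 23.8% in females. Sting1, the adaptor of cytosolic DNA sensing, rose by 2.23 ± 0.30 and 1.84 ± 0.29, the DNA sensor Aim2 by 2.44 ± 0.34 and 2.25 ± 0.32, and the endosomal DNA receptor Tlr9 by 2.87 ± 0.44 and 2.82 ± 0.43. Of 8 genes that restrain the signal, 4 rose and 1 fell in males, and 3 rose and 1 fell in females, a share near that of all genes called in females. Ptpn6 (SHP-1, a phosphatase of leukocytes) rose by 2.28 ± 0.35 and 2.54 ± 0.34, and Socs3 by 2.57 ± 0.41 and 1.93 ± 0.38. Pias1, a SUMO ligase, fell by 0.32 ± 0.10 and 0.50 ± 0.10 on the log2 scale.

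Of 33 other interferon targets, 24 rose and 1 fell in males, and 27 rose and 1 fell in females, with median log2 fold changes of 0.89 and 0.99. Among all genes tested, 18.9% rose in males and 23.8% in females. Irf8, a factor of myeloid cells, rose by 2.45 ± 0.30 and 2.25 ± 0.29, and Ciita, the activator of MHC class II genes, by 2.27 ± 0.35 and 2.84 ± 0.34. Trafd1, an inhibitor of innate signalling, was the 1 that fell, by 0.38 ± 0.10 and 0.73 ± 0.09 on the log2 scale. In FeNonAD against FeCon, where no member was called, 2 of the 33 rose and 1 fell, and 14.5% of all genes were called. Ciita rose there by 1.53 ± 0.35 (adjusted p = 0.00252) and Trafd1 fell by 0.56 ± 0.10 (adjusted p = 0.000133). Irf8 and Ptpn6 are genes mainly of leukocytes, whose markers rose in the same comparisons, and the part of those cells in these values was not tested.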

How the data were processed

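RNA was measured in thoracic aortas of 48 mice. The study dissected the ascending part, arch and proximal descending part and describes the segments used for RNA as lesioned; which segment was used from mice with no lesion is not given in the sources used here. There was 1 strand-specific library per mouse, so replicates are separate animals. The values are expected counts per gene, which the authors deposited after alignment and estimation; the submitters' processing notes name Bowtie2, RSEM 1.3.1 and the build GRCm39. RSEM shares reads among similar genes, and 4.99% of values were not whole (tolerance 1e-06), so values were rounded. Totals were 13548003 to 17281262 counts per library. Reads carried no molecular identifiers, so the limit set by a count of 0 covers counting error only.

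Genes were filtered with filterByExpr, which left 14431 of 18782, scaled by TMM (factors 0.874 to 1.08) and tested with edgeR 4.0.16 (robust quasi-likelihood, R 4.3.3) in 1 fit of all 48 libraries with a mean per group. P-values were adjusted by the Benjamini-Hochberg method over all genes tested, and the SE was the log2 fold change divided by the root of F. The 9 pairwise comparisons and 3 interactions by sex were contrasts of this fit. CPM used TMM-scaled totals. Alternatives were DESeq2 1.42.0, its size factors, no filter, a fold of 2, fits of the compared groups alone, a replicate block and leaving out libraries. The design assumed raw counts, and expected counts took the same test.

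Genes named with values were, by rule, the 3 largest changes per main comparison, the member of highest mean CPM in each role, any member called between sexes, the 2 smallest adjusted p-values in each pathway list, and Ifnb1, Ifng, Ifnar1 and Ifnar2 in every case; 1 gene of the pathway lists is not reported here. Any member could be named, as the members are the subject. The members and gene lists were chosen with earlier results of these data known. The test was tried on simulated data. Promoters came from RefSeq for GRCm38.p6; no other coordinates are given, as the files' build differs. Replicate numbers did not pair mice across groups. The labels name no batch.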

Additional observations from a re-analysis of the deposited data

Results flagged for a closer look

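In groups of 4 to 10 mice, 12 of 240 member-by-group sets held a library far from the others by Dixon's ratio (5%), where chance gives about 1 in 20. MaNonAD1 was the high library in 8 of these, at 56.8 CPM for Stat2, 19.5 CPM for Ifit1, 35.4 CPM for Oasl2, 19.4 CPM for Ifi47, 10.2 CPM for Rsad2, 16.3 CPM for Cmpk2, 35.0 CPM for Parp14 and 2.57 CPM for Ifi44. MaCon4 was low for Irf9, at 21.6 CPM, and FeAAD9 was low for Ifit3, at 3.63 CPM. Ifitm3 was high in MaAAD7, at 414 CPM, and in FeAAD5, at 583 CPM.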

How the results depend on the processing

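No call of a member changed direction under the alternatives run. With a fold of at least 2 required, 16 members were called in MaAAD against MaCon, 16 in FeAAD against FeCon and 13 in FeAAD against FeNonAD. DESeq2 called 31, 34 and 23 in these comparisons, 2 in MaAAD against MaNonAD and 1 in MaCon against FeCon. Fits of the compared groups alone called 33, 27 and 12, and 1 in FeNonAD against FeCon and 2 in MaCon against FeCon; the cause was not tested. DESeq2's size factors gave 31, 34 and 23, and no filter on low counts gave 31, 32 and 22. Leaving out each AAD library in turn, an alternative added after the data were seen, gave 25 to 31, 25 to 34 and 17 to 28. Leaving out each MaNonAD library in turn gave 0 to 4 in MaAAD against MaNonAD, with 4 only without MaNonAD1, and 0 to 0 in MaNonAD against MaCon. With the replicate number as a block, the counts were 24, 31 and 21, and 0 in the others. The numbers name mice only: correlations of same-numbered libraries ran from -0.532 to 0.472, with at most 3 pairs over 0.1 in a comparison. Only mice that lived to the end were sequenced, and 4 MaNonAD mice limit the male comparisons. Low members such as Oas3 and Ifi44 rest on few counts in controls, and the interferon ligands are below what this depth can compare.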
